A study of Mus musculus with 6 samples.

Results

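The alveolar type 1 cell genes are 10 genes that mark the flat cells covering most of the gas-exchange surface of the lung: Ager, Hopx, Aqp5, Pdpn, Cav1, Cav2, Rtkn2, Akap5, Clic5 and Emp2. They were chosen by name as known markers, but with earlier results of these data known, as were the other gene lists below. Each gene was read through a probe set whose platform annotation gives exactly 1 symbol, and all 10 were measured among 19935 genes in all. Each had 1 such probe set on the array, so no choice between probe sets was needed. Whole-lung total RNA was hybridised to 6 Affymetrix arrays, 3 from mice carrying a transgene for Scnn1b (Scnn1b-Tg) and 3 from wild-type mice, all on a C57BL/6 background. The transgene codes for the β chain of the epithelial sodium channel, and the study was a search for candidate genes of emphysema, in which alveolar walls are lost. The sources used here do not give the promoter that drives the transgene, or the age and sex of the mice. Whether the 3 samples of each genotype are separate animals is not stated in the labels, so the p-values rest on a spread that may be technical.

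Alveolar type 1 cells are thin and very wide, and they form the air side of the barrier across which oxygen passes into the capillaries. In the adult lung they are replaced from surfactant-making alveolar type 2 cells, and their identity depends on the transcription factor NKX2-1 and on YAP and TAZ acting through TEAD factors. Several of their markers are shared with other lung cells: caveolins are also abundant in endothelium, podoplanin in lymphatic endothelium and mesothelium, and Hopx in heart muscle. In whole-lung RNA, fewer cells of a type and less RNA per cell cannot be told apart.

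Values are RMA intensities on a linear scale as deposited, and fold changes are differences of log2 intensity, Scnn1b-Tg over wild type, fitted with limma over all 19935 genes. Scnn1b itself had intensities of 1405, 1527 and 1333 in Scnn1b-Tg lung, against 172, 108 and 139 in wild-type lung. Array medians lay between 47.6 and 48.5. Over all genes, Scnn1b-Tg replicate 3 and wild type replicate 2 stood apart: the median absolute deviation of a gene from its mean over the 6 arrays was 0.0581 and 0.0591 on the log2 scale there, and 0.0439 to 0.0497 on the other 4. Over bright genes alone it was 0.0946 on Scnn1b-Tg replicate 3 and 0.0789 on wild type replicate 2, and 0.0486 to 0.0636 on the other 4. Over the 10 alveolar type 1 genes it was likewise largest on Scnn1b-Tg replicate 3, at 0.139, but smallest on wild type replicate 2, at 0.0423. All 10 alveolar type 1 genes were bright, each above at least 90.95% of the genes tested, so their signal was far from the floor of the arrays, which was 18.3 to 18.6.

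None of the 10 genes passed the test at an adjusted p under 0.05 (limma, Benjamini-Hochberg over all genes), the smallest adjusted p being 0.757. Of all genes tested 0.00502% passed, which was Scnn1b alone. At an unadjusted p under 0.05 there were 2 lower members, Cav2 and Emp2, and 0 higher ones, beside 6.01% of all genes in either direction, 2.05% lower and 3.96% higher. The median log2 fold change over the 10 members was -0.03, beside 0.0052 over all genes. With single arrays left out it ran from -0.086 (Scnn1b-Tg replicate 3) to 0.0043 (wild type replicate 3). The fitted values of 8 members lay below 0, beside 46.8% of all genes, but 5 of the 10 lay within 0.05 of 0, and the count below 0 ran from 5 to 9 over the alternative settings. The 95% intervals of the 10 fold changes, each for a single gene, together spanned 0.748-fold to 1.24-fold. A change of 2-fold in either direction therefore lay outside all 10 intervals.

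**Figure D1:**
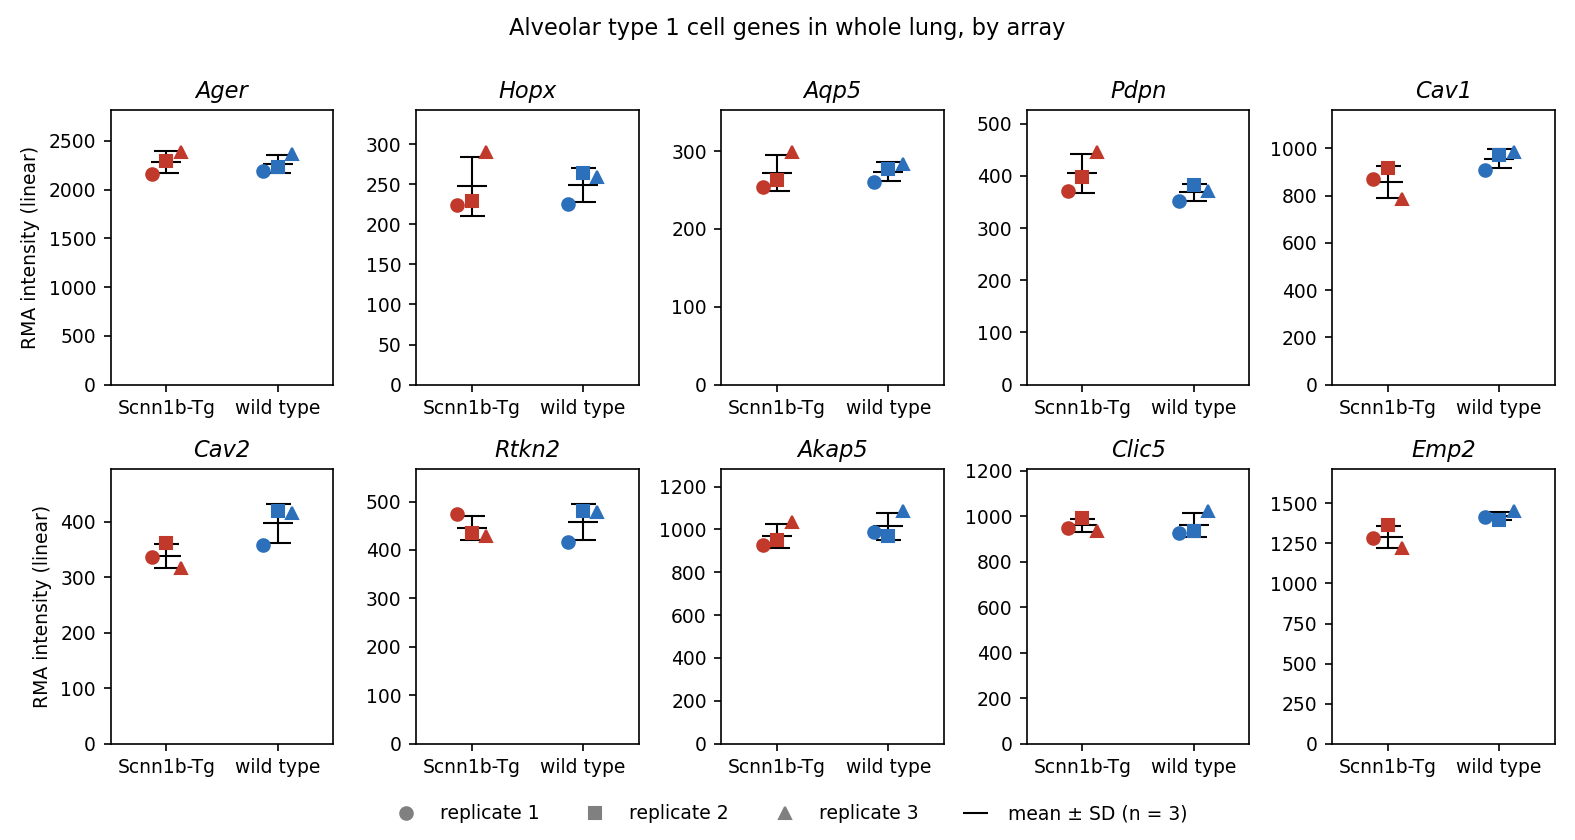
RMA intensity (linear scale, axis from 0) of each of the 10 alveolar type 1 genes, with Scnn1b-Tg arrays in red on the left and wild-type arrays in blue on the right; symbols stand for the replicate and bars for mean ± SD (n = 3). The arrays of the genotypes overlap for 9 genes, and for Emp2 the 3 Scnn1b-Tg arrays, at 1225 to 1362, lie below the 3 wild-type arrays, at 1398 to 1451.

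Among the proteins of the cell surface, Ager encodes RAGE, a receptor for S100 proteins, HMGB1 and glycated proteins that sits on the basal membrane of alveolar type 1 cells. Ager (probe set 10444407) had intensities of 2160.05, 2294 and 2384 in Scnn1b-Tg lung, against 2188, 2233 and 2362 in wild-type lung. The groups overlapped almost completely. The means were 2279 ± 112 in Scnn1b-Tg and 2261 ± 90.5 in wild type (SD, n = 3 each). The log2 fold change was 0.01 ± 0.06 (SE), with a 95% interval from -0.12 to 0.14 and an adjusted p of 0.995 in limma. Its sign turned with quantile normalization (-0.017), median centring (-0.010) and array weights (-0.011).

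Aqp5 encodes the water channel of the apical membrane of these cells, which is also found in airway glands. Its intensities (probe set 10426767) were 254, 263 and 299 in Scnn1b-Tg lung, against 259.8, 277 and 283 in wild-type lung. The highest and the lowest of the 6 values were both on Scnn1b-Tg arrays. Its fitted log2 fold change was -0.0095 ± 0.07 (SE), with a 95% interval from -0.18 to 0.16. Without Scnn1b-Tg replicate 3 it was -0.08.

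Pdpn encodes podoplanin, a mucin-type glycoprotein that binds the platelet receptor CLEC-2 and links to the actin skeleton through ezrin and moesin. It had intensities (probe set 10518147) of 371, 399 and 446 in Scnn1b-Tg lung, against 351, 383 and 371 in wild-type lung. It was the member with the highest fitted change. Scnn1b-Tg replicate 3 was the highest array, and Scnn1b-Tg replicate 1 lay within the wild-type range. The means were 405 ± 37.9 in Scnn1b-Tg and 369 ± 16.2 in wild type (SD, n = 3 each). On the log2 scale the fold change was 0.13 ± 0.08 (SE), adjusted p = 0.893 in limma, and it was 0.06 without Scnn1b-Tg replicate 3 and 0.19 without Scnn1b-Tg replicate 1. Among markers of the other cells that make podoplanin, 4 of 7 mesothelial genes lay above 0 and 3 below, with a median of 0.06. At an unadjusted p under 0.05 there was 1, Lrrn4 at 0.25 ± 0.09 (SE). Msln, the mesothelial antigen mesothelin, gave 0.20 ± 0.11, and the lowest of the 7, named after its value was seen, was Gpm6a at -0.15 ± 0.09. The mean deviation of the mesothelial list on the log2 scale was -0.03 to 0.12 on Scnn1b-Tg arrays, highest on replicate 3, and -0.06 to -0.01 on wild-type arrays. The lymphatic endothelial list had 4 of 5 measured genes above 0, with 0 at an unadjusted p under 0.05, and its mean deviation was 0.0011 to 0.05 on Scnn1b-Tg arrays and -0.14 to 0.04 on wild-type arrays. The part of these cells in the Pdpn value was not tested.

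Cav1 and Cav2 encode caveolin-1 and caveolin-2, which together coat caveolae, the flask-shaped pits of the plasma membrane, in alveolar type 1 cells and in endothelium. With Emp2 they had the lowest fitted values of the 10. Cav2 (probe set 10536494) had intensities of 336, 361 and 317 in Scnn1b-Tg lung, against 357, 419 and 415 in wild-type lung. Scnn1b-Tg replicate 2 lay just above wild type replicate 1, so the groups overlapped by that pair of arrays. The means were 338 ± 22.1 in Scnn1b-Tg and 397 ± 34.6 in wild type (SD, n = 3 each). The log2 fold change was -0.23 ± 0.08 (SE), or 0.852-fold, with a 95% interval from -0.42 to -0.04 and an adjusted p of 0.757 in limma. Over the 15 alternative settings it stayed below 0, from -0.31 to -0.14, and its adjusted p ran from 0.359 to 0.971.

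Cav1 (probe set 10536499) had intensities of 872, 919 and 787 in Scnn1b-Tg lung, against 909.6, 973 and 984 in wild-type lung. As for Cav2, Scnn1b-Tg replicate 3 was the lowest array and wild type replicates 2 and 3 were the highest. For Cav1 the fit gave -0.16 ± 0.07 on the log2 scale (SE), or 0.898-fold, with a 95% interval from -0.32 to 0.0058 and an adjusted p of 0.830 in limma. Without Scnn1b-Tg replicate 3 it was -0.09, and without both that array and wild type replicate 2 it was -0.08. The caveolin genes neighbour each other, and the protein-coding genes on either side, Tes and Met, gave values of 0.08 ± 0.05 and -0.01 ± 0.12 on the log2 scale (SE), shown for their position alone.

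Emp2 encodes a tetraspan membrane protein of the PMP22 family that influences how much caveolin-1 and integrin reaches the cell surface. Its intensities (probe set 10437639) were 1286, 1362 and 1225 in Scnn1b-Tg lung, against 1417, 1398 and 1451 in wild-type lung. Emp2 was the 1 member of 10 whose groups did not overlap, beside 4.41% of all genes wholly lower in Scnn1b-Tg and 6.26% wholly higher. The means were 1291 ± 68.8 in Scnn1b-Tg and 1422 ± 26.8 in wild type (SD, n = 3 each). The log2 fold change was -0.14 ± 0.05 (SE), or 0.907-fold, with a 95% interval from -0.26 to -0.02 and an adjusted p of 0.764 in limma. It stayed below 0 over all 15 alternative settings, from -0.20 to -0.10.

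The start-site windows of the caveolin genes and Emp2, the members with the lowest fitted values, are shown for the sequence around their transcription starts. Each covers 250 bases before to 50 bases after an annotated start (RefSeq, GRCm38.p6), 5′ to 3′ on the gene's strand, in lower case. Capitals mark CAAG, the core that NKX2-1 binds, or TGACTCA, the AP-1 motif, on either strand, where CTTG is CAAG read on the other strand. The first window is that of Cav2, chr6:17280935-17281234, plus strand. The Cav1 window, chr6:17306085-17306384 on the plus strand, is the upstream one of 2 annotated for that gene. The third is that of Emp2, chr16:10313919-10314218, minus strand.
Cav2: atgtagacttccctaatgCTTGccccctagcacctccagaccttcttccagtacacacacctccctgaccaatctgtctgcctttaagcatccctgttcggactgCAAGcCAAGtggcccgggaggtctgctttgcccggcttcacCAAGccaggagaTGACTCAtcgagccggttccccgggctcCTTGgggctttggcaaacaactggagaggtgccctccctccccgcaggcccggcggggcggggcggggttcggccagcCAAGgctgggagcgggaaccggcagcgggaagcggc
Cav1: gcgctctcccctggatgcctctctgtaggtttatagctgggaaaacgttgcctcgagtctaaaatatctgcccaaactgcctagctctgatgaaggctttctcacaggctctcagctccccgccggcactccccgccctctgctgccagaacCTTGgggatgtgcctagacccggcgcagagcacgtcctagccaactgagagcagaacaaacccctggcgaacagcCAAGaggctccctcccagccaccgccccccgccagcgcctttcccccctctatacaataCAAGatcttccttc
Emp2: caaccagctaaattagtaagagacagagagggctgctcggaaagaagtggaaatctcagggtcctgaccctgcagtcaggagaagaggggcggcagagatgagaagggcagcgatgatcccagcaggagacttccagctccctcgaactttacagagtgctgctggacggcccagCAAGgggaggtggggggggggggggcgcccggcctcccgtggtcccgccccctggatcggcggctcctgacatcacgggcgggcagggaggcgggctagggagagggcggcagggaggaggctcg

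These windows hold 6 CAAG matches in Cav2, 3 in Cav1 and 1 in Emp2, and the Cav2 window holds the 1 AP-1 match. RefSeq windows were matched for 9 of the 10 members, 11 windows in all. CAAG stood in 10 of the 11 and in 90.6% of all 32851 windows of that length, TGACTCA in 1 of the 11 and in 5.2% of all, and GGAATG, the TEAD motif, searched on both strands, in 0 of the 11 and in 14.7% of all. The AP-1 match in the Cav2 window overlaps no CAAG match. The G and C content was 64.3% in the Cav2 window, 59.3% in this Cav1 window and 65.7% in Emp2, beside a median of 52.7% over all windows. It was higher still in the windows of Aqp5, at 79.7%, and Akap5, at 70.7%. Of the member windows only that of Pdpn, at 48.7%, lay below the median. A match is a description of the letters and not a bound site.

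**Figure D2:**
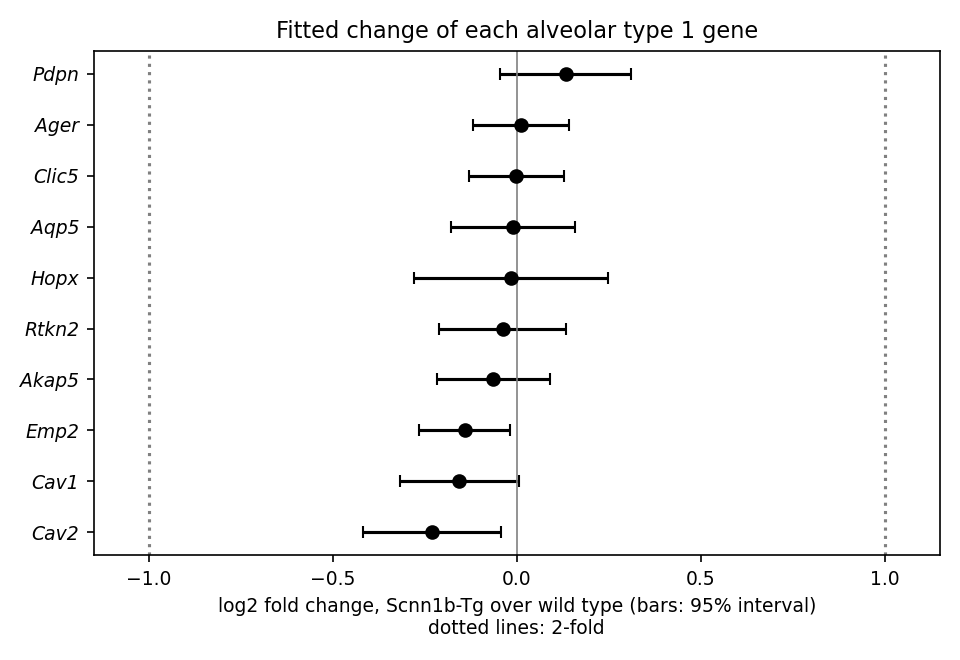
Fitted log2 fold change of each alveolar type 1 gene, Scnn1b-Tg over wild type (horizontal axis), with 95% intervals as bars and dotted lines at 2-fold. The values run from -0.23 for Cav2 to 0.13 for Pdpn, and the intervals of Cav2 and Emp2 lie below 0.

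The partners of the caveolins were read from the same fit. Of 10 genes for cavins, EHD and pacsin proteins and Cav3, which build or anchor caveolae, 0 passed over all genes, 6 had fitted values below 0, and the median was -0.03. Cavin2, which shapes caveolae in lung endothelium, had intensities of 649, 669 and 591 in Scnn1b-Tg lung, against 717, 788 and 736 in wild-type lung. All 3 Scnn1b-Tg arrays lay below all 3 wild-type arrays, beside 4.41% of all genes wholly lower and 6.26% wholly higher. Scnn1b-Tg replicate 3 was again the lowest array for Cavin2. The log2 fold change of Cavin2 was -0.23 ± 0.06 (SE), adjusted p = 0.575 in limma, and Ehd4 gave -0.12 ± 0.07. Cavin1, the cavin that all caveolae need, gave 0.05 ± 0.09 and was chosen for display after its value was seen.

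The endothelial markers are given beside the caveolins because endothelium also makes them. Of 14 capillary and pan-endothelial genes, 12 had fitted values below 0, beside 46.8% of all genes. None passed over all genes, and the median of the list was -0.06. At an unadjusted p under 0.05 there were 2 lower, Ednrb, the endothelin B receptor, at -0.33 ± 0.11 (SE), and Apln, the ligand apelin, at -0.16 ± 0.07. The 2 above 0 were Aplnr at 0.12 ± 0.09 and Tie1 at 0.10 ± 0.12. Pecam1 and Cdh5 lay near 0, at -0.03 ± 0.06 and -0.0030 ± 0.08. Aplnr, Tie1, Pecam1 and Cdh5 were named after their values were seen. The mean deviation of the list on the log2 scale was -0.12, -0.03 and 0.05 on Scnn1b-Tg replicates 1, 2 and 3, against 0.0003, 0.0063 and 0.09 on the wild-type arrays. Scnn1b-Tg replicate 3, where Cav1 and Cav2 were lowest at -0.20 and -0.21, was the highest Scnn1b-Tg array of the endothelial list. The mean deviation of the 6645 brightest genes was also highest there among the Scnn1b-Tg arrays, at 0.044, so the endothelial value on that array is not particular to endothelium. The part of endothelium in the caveolin values was not tested.

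Among the genes for proteins inside the cell, Hopx encodes a small homeodomain protein that does not bind DNA itself and marks alveolar type 1 cells and their progenitors. Hopx (probe set 10530819) had intensities of 224, 229 and 290.1 in Scnn1b-Tg lung, against 225, 263 and 259 in wild-type lung. Scnn1b-Tg replicate 3 was the highest of the 6 arrays and the other 2 Scnn1b-Tg arrays were close to the lowest wild-type array. Hopx was the most variable member: its residual SD of 0.17 on the log2 scale exceeded that of 93.0% of all genes. Its log2 fold change was -0.02 ± 0.11 (SE), and -0.13 without Scnn1b-Tg replicate 3, adjusted p = 0.995 and 0.911 in limma. Markers of cardiac-type muscle, which also makes Hopx, had 5 of 6 fitted values below 0, 3 of them at an unadjusted p under 0.05, and a median of -0.36. Their mean deviation was -0.33 on Scnn1b-Tg replicate 3, where Hopx was highest, -0.04 and -0.03 on the other Scnn1b-Tg arrays, and 0.02 to 0.26 on wild-type arrays. Myh6, a cardiac myosin chain, gave -0.42 ± 0.11 and Myl7, an atrial light chain, -0.46 ± 0.17. The part of cardiac-type muscle in the Hopx value was not tested.

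Rtkn2 encodes rhotekin-2. Its intensities (probe set 10363743) were 474, 435 and 428 in Scnn1b-Tg lung, against 416, 480.0 and 479 in wild-type lung. The lowest and the highest array were both wild type. Rtkn2 gave a log2 fold change of -0.04 ± 0.07 (SE), with a 95% interval from -0.21 to 0.13.

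Akap5 encodes a scaffold that anchors protein kinase A and calcineurin near membrane receptors. It had intensities (probe set 10396640) of 925, 953 and 1034 in Scnn1b-Tg lung, against 989, 969 and 1085 in wild-type lung. In both genotypes replicate 3 was the highest array, and the groups overlapped. The log2 fold change was -0.06 ± 0.06 (SE), and over single arrays left out it ran from -0.11 to -0.01. Of 5 measured genes for kinase, phosphatase and cyclase partners of AKAP5, 0 passed over all genes, and the largest values were 0.14 ± 0.07 for Ppp3ca, a calcineurin subunit, and -0.11 ± 0.08 for Prkar2a, a regulatory subunit of protein kinase A.

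Clic5 encodes a member of the chloride intracellular channel family that ties the membrane to actin through ezrin and is also abundant in endothelium. Its intensities (probe set 10445347) were 949.8, 994 and 937 in Scnn1b-Tg lung, against 928, 935 and 1022 in wild-type lung. The wild-type arrays spanned all 3 Scnn1b-Tg values. Clic5 had a log2 fold change of -0.0014 ± 0.05 (SE), the smallest in size of the 10, with a 95% interval from -0.13 to 0.13.

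The 10 members did not all deviate in the same direction on an array. On Scnn1b-Tg replicate 3, 4 members had their highest value of the 6 arrays (Ager, Hopx, Aqp5 and Pdpn) and 3 had their lowest (Cav1, Cav2 and Emp2). Deviations there ran from -0.21 for Cav2 to 0.23 for Hopx. On Scnn1b-Tg replicate 1, 4 members had their lowest value (Ager, Hopx, Aqp5 and Akap5), and on wild type replicate 1, 3 did (Pdpn, Rtkn2 and Clic5). Wild type replicate 3 held the highest value of 4 members (Cav1, Akap5, Clic5 and Emp2) and wild type replicate 2 that of the other 2, Cav2 and Rtkn2. The mean deviation over the 10 members was -0.07, -0.01 and 0.0039 on Scnn1b-Tg replicates 1, 2 and 3, against -0.05, 0.05 and 0.08 on wild type replicates 1, 2 and 3, so wild type replicate 1 lay within the Scnn1b-Tg range. Across all 6 arrays the highest value exceeded the lowest by 1.10-fold for Clic5, the steadiest member by this ratio, and by 1.32-fold for Cav2, the member with the widest range.

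**Figure D3:**
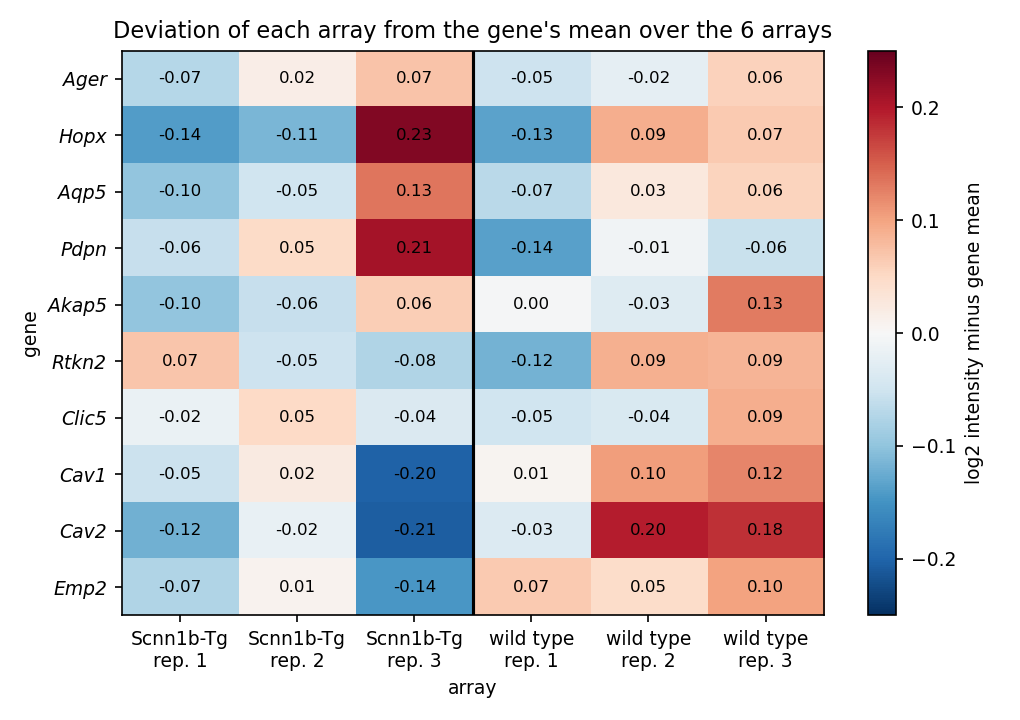
Deviation of each array from the gene's mean over the 6 arrays, in log2 units (colour and printed value), for the 10 genes (rows) with the 3 Scnn1b-Tg arrays left of the line and the 3 wild-type arrays right of it. On Scnn1b-Tg replicate 3 the values run from -0.21 for Cav2 to 0.23 for Hopx.

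A wider list of 15 further genes known from alveolar type 1 cells had 14 measured. Of these 0 passed over all genes and 0 had an unadjusted p under 0.05. Fitted values lay above 0 for 8 and below 0 for 6, with a median of 0.01. The largest were -0.22 ± 0.11 (SE) for Ndnf, a secreted neurotrophic factor, and 0.17 ± 0.12 for the keratin gene Krt7. Vegfa, the growth factor with which these cells sustain the capillaries, was the 1 gene of the 14 whose groups did not overlap. Over all genes 4.41% were wholly lower in Scnn1b-Tg and 6.26% wholly higher. Vegfa had 706, 685 and 718 in Scnn1b-Tg lung, against 732, 722 and 847 in wild-type lung. Its log2 fold change was -0.12 ± 0.07 (SE), adjusted p = 0.896 in limma, and it was named after its values were seen.

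Regulators and binding partners of the members gave 0 calls as well. Of 14 genes for NKX2-1, GATA6, FOXA, YAP, TAZ and TEAD factors and YAP target genes, 7 lay above 0 and 7 below, with 0 at an unadjusted p under 0.05. The YAP targets Ccn1 and Amotl2 had the largest values, 0.39 ± 0.22 and 0.16 ± 0.08 (SE). Of 8 genes for RAGE ligands and its adaptor Diaph1, 6 lay above 0, and the largest values were -0.21 ± 0.10 for Hmgb1 and 0.14 ± 0.07 for S100a4. For S100a4 the groups did not overlap, beside 6.26% of all genes wholly higher in Scnn1b-Tg and 4.41% wholly lower. Its signal was dim at 37.8 ± 3.23 in Scnn1b-Tg and 34.2 ± 0.876 in wild type (SD, n = 3 each). Of 7 podoplanin partners 5 lay above 0, led by the hyaluronan receptor Cd44 at 0.22 ± 0.11 and with the galectin Lgals8 at -0.15 ± 0.07.

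Genes of the surfactant-making alveolar type 2 cells were read from the same fit. Of 13 alveolar type 2 genes 0 passed over all genes and 0 had an unadjusted p under 0.05, and the median was 0.0088. The largest values were -0.19 ± 0.12 (SE) for Lamp3, a lamellar body protein, and 0.15 ± 0.10 for the cathepsin Ctsh. Etv5, at 0.12 ± 0.05 and named after its value was seen, was the 1 gene of the 13 whose groups did not overlap. Of 12 listed genes of the state between both cell types 10 were measured, and Cdkn1a and Areg were not. Fitted values of 8 lay above 0, with 2 at an unadjusted p under 0.05. These were Lgals3, which encodes galectin-3 and is also abundant in macrophages, at 0.48 ± 0.08, adjusted p = 0.205 in limma, and Ndrg1, a stress-induced gene, at 0.21 ± 0.07. Lgals3 had 244, 221 and 199 in Scnn1b-Tg lung, against 167, 153 and 156 in wild-type lung. The groups did not overlap, beside 6.26% of all genes wholly higher in Scnn1b-Tg and 4.41% wholly lower. The 2 genes of this list below 0 were Krt8 at -0.03 ± 0.07 and Sfn at -0.07 ± 0.14. Krt18 and Krt19 gave 0.03 ± 0.04 and 0.04 ± 0.07. Krt8, Sfn, Krt18 and Krt19 were named after their values were seen. In these libraries the macrophage list had 9 of 9 measured genes above 0, 7 of them at an unadjusted p under 0.05, led by Chil3, a chitinase-like protein, at 1.34 ± 0.19 and Itgam, an integrin chain of myeloid cells, at 0.91 ± 0.15. Its mean deviation was 0.21 to 0.28 on Scnn1b-Tg arrays and -0.28 to -0.22 on wild-type arrays, and the part of macrophages in the Lgals3 value was not tested.

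Airway, stromal and muscle markers are given as the makeup of the same libraries. Club cell genes had 8 of 9 fitted values below 0, with 5 at an unadjusted p under 0.05, led by Pon1 at -0.68 ± 0.22 (SE) and Gsta3 at -0.65 ± 0.20. Their mean deviation was -0.21, -0.18 and -0.07 on Scnn1b-Tg arrays, against -0.09, 0.39 and 0.17 on wild-type arrays, so that wild type replicate 2 was highest. Ciliated cell, fibroblast and smooth muscle lists had 5 of 8, 5 of 8 and 3 of 6 fitted values above 0, with 0 genes at an unadjusted p under 0.05 in each. Their largest values were -0.21 ± 0.12 for Tppp3 and 0.16 ± 0.11 for Dnah5 in cilia, 0.30 ± 0.16 for Col1a1 and 0.17 ± 0.17 for Col1a2 in fibroblasts, and -0.20 ± 0.19 for Cnn1 and 0.14 ± 0.21 for Acta2 in smooth muscle. For the lymphatic list, whose mean deviations are given with Pdpn, the largest were 0.14 ± 0.08 for Prox1 and 0.13 ± 0.15 for Flt4. Prox1 was dim, with means of 33.6 in Scnn1b-Tg and 30.5 in wild type. The mean deviation of the 10 alveolar type 1 genes spanned -0.07 to 0.08 over the 6 arrays, and that of the macrophage list -0.28 to 0.28.

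**Figure D4:**
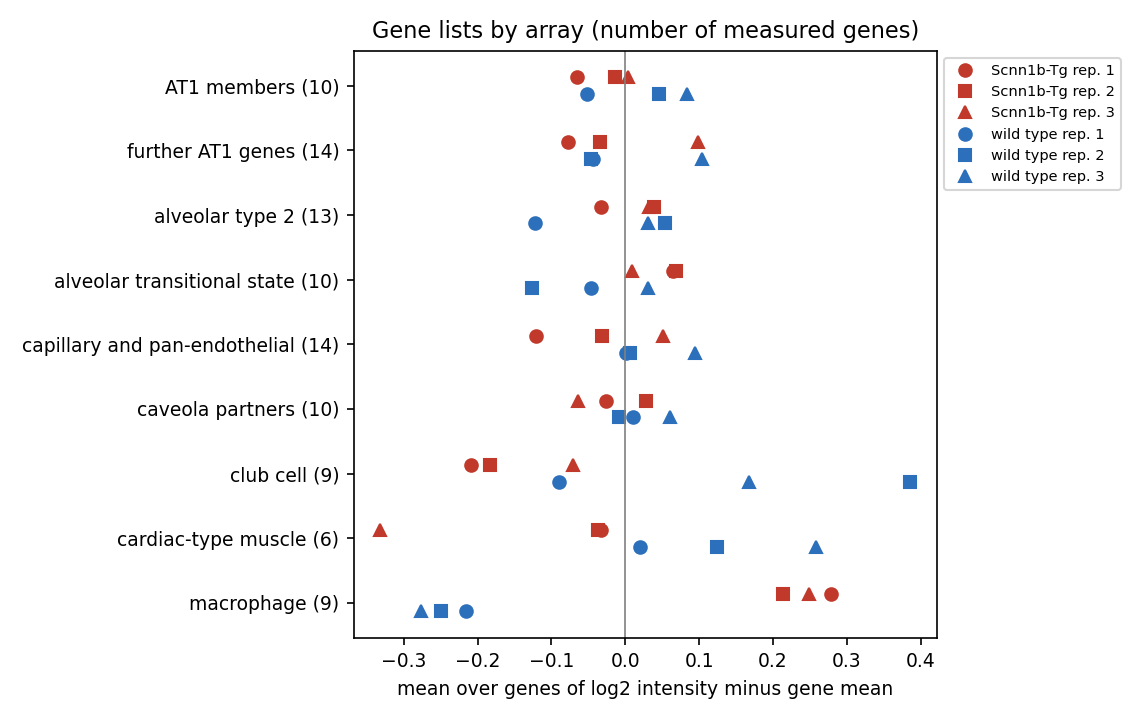
Mean deviation of gene lists on each array (horizontal axis, log2 intensity minus the gene's mean over the 6 arrays), with Scnn1b-Tg arrays in red above and wild-type arrays in blue below in each row; the number of measured genes stands in brackets. For the 10 alveolar type 1 genes the Scnn1b-Tg arrays lie at -0.07 to 0.0039 and the wild-type arrays at -0.05 to 0.08, while the macrophage list lies at 0.21 to 0.28 on Scnn1b-Tg arrays and at -0.28 to -0.22 on wild-type arrays.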

How the data were processed

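Lung total RNA was extracted with Trizol and labelled by an Affymetrix whole-transcript method, per the labels' protocols. The authors deposited 1 linear-scale intensity per probe set and array. RMA made it, per the submitters' processing notes, with a version and options not given in the sources used here. A constant may have been added to the deposited intensity; no source says.

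Of 28815 probe sets, 21780 had 1 gene symbol in the platform annotation, 1605 several and 5430 were not listed. The brightest probe set per gene was kept, which left 19935 genes. The log2 values entered limma 3.58.1 under R 4.3.3 (lmFit, eBayes, genotype as the only term, two-sided, 4 residual degrees of freedom and 6.99 after moderation), and genes were called at an adjusted p under 0.05. The fit was also run on simulated data with independent noise and known changes, as a check of the code and not of the results here. Beside the members, 19 lists of 180 entries were described, 172 of them measured, 1 through a RefSeq synonym. From each list up to 3 called genes, or otherwise the 2 largest absolute fold changes, were named. Members and lists were chosen with earlier results of these data known. The labels state no pairing of same-numbered arrays, so numbers were not taken as pairs. Same-numbered arrays deviated together with correlations of 0.03, 0.03 and 0.04 across genes, which cannot settle whether they are pairs. The number of arrays limits the precision.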

Additional observations from a re-analysis of the deposited data

How the results depend on the processing

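Over 15 alternatives (quantile normalization, median centring, the 6645 dimmest genes left out, the mean over probe sets, array weights, a robust intensity-trend variance, 16 subtracted from every intensity, the replicate block, 6 single arrays left out, and, chosen after seeing the data, Scnn1b-Tg replicate 3 and wild type replicate 2 left out together) 0 of the 10 members were called, and at an unadjusted p under 0.05 there were 0 to 3. Pdpn, Cav1, Cav2, Akap5 and Emp2 kept their sign in all of them. The count of genes called over all genes, 1 in the fit reported, was 39 without the dimmest genes, 36 with the intensity trend, 23 with 16 subtracted and 6 without both arrays. With single arrays left out it ran from 0 (wild type replicate 3) to 5 (Scnn1b-Tg replicate 3). With the replicate block, a fit that uses the replicate numbers as pairs, it was 3, and every array correlated best with its own number, a hint from the data and not the design. The median over members ran from -0.086 (without Scnn1b-Tg replicate 3) to 0.0043 (without wild type replicate 3). Signs of values near 0 turned. Ager was -0.017 after quantile normalization, -0.010 after median centring, -0.011 with array weights and -0.030 without both arrays. Rtkn2 was 0.025 without both arrays. With single arrays left out Ager ran from -0.022 to 0.049, Hopx from -0.13 to 0.051, Aqp5 from -0.078 to 0.037, Clic5 from -0.027 to 0.043 and Rtkn2 from -0.107 to -0.0030. The cause of these turns was not tested.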

Other observations

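Relatives of the members were read from the same fit. Emp3, a relative of Emp2 found in leukocytes among other cells, had intensities of 329, 289 and 342 in Scnn1b-Tg lung, against 288, 258 and 238 in wild-type lung, and limma gave 0.29 ± 0.09 (SE) on the log2 scale at an adjusted p of 0.707. The groups did not overlap, with Scnn1b-Tg replicate 2 at 288.696 just above wild type replicate 1 at 288.357. Over all genes 6.26% were wholly higher in Scnn1b-Tg and 4.41% wholly lower. Emp1 gave -0.08 ± 0.11, and of 8 relatives of the CLIC, EMP and rhotekin families 5 lay above 0. Among 11 other aquaporins 8 lay above 0, led by Aqp9, a water and glycerol channel of leukocytes, at 0.61 ± 0.17, with 67.9, 48.1 and 41.5 in Scnn1b-Tg lung, against 37.3, 31.8 and 32.0 in wild-type lung. Aqp3, a channel of basal airway cells, gave 0.11 ± 0.10. Aqp9 in wild-type lung and Aqp3 in both genotypes were dim. Aqp6, Mip, Aqp7 and Aqp8, all above 0, had lower means in both genotypes than Aqp9 in wild type. The count of aquaporins above 0 therefore rests in part on signal near the floor of the arrays. Neither Aqp9 (adjusted p = 0.599) nor any other gene of these lists passed over all genes in limma, and the part of macrophages, whose markers were higher in the same libraries, was not tested.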
